A study of Mus musculus with 3 samples.

Results

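Open chromatin was described at 9 genes of cartilage formation, the Sox trio Sox5, Sox6 and Sox9 and the cartilage genes Acan, Col2a1, Comp, Matn3, Hapln1 and Ihh, in mouse mesenchymal stem cells of a series on heterotopic ossification, in which bone forms in soft tissue. Their ATAC-seq regions were chosen by position alone: a region belonged to a gene when one of its peak summits lay inside the gene, or when the nearest end of a protein-coding gene, within 50 kb of the summit, was an end of that gene. By this rule 47 of the 67237 regions of the series, and 9 of its 20665 protein-coding genes on chromosomes 1 to 19, were included. For Sox9 the summits of the surrounding gene desert were listed as well, out to 1 Mb.

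ATAC-seq marks open DNA by the insertion of sequencing adapters with a transposase. One library was made from cells taken at day 0, before injury (called day 0 here), 1 from cells taken 7 days after injury with the label immobilized, and 1 from cells taken 7 days after injury with the label non-immobilized. The sources used here do not give the mouse strain, age or sex, the kind of injury, the site sampled, the way the cells were isolated or the number of animals behind a library. With 1 library per group there was no replicate check of any difference below, and no p-value is given. Shares carry exact (Clopper-Pearson) 95% binomial intervals, which cover counting error only and treat regions of 1 gene as independent, which they are not.

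In the embryo, cartilage forms when mesenchymal cells condense and switch on the transcription factor Sox9. Sox9 acts with its partners Sox5 and Sox6, which lack an activation domain of their own and help it bind at enhancers of cartilage matrix genes. Among those, Col2a1 encodes the main collagen of cartilage, Acan the large proteoglycan aggrecan, Hapln1 the link protein that ties aggrecan to hyaluronan, Comp and Matn3 the adaptor proteins cartilage oligomeric matrix protein and matrilin 3, and Ihh the signal Indian hedgehog that maturing chondrocytes secrete. Heterotopic bone after trauma commonly passes through a cartilage stage.

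The libraries held 143818952 to 176119937 read pairs, of which 42.0% to 60.2% were duplicates, with the highest share at day 0. Pairs estimated to remain after alignment and removal of duplicates numbered 63640194 at day 0, 75269683 in the immobilized and 90136518 in the non-immobilized library. The part of this depth in what a list lacks was not tested. The deposited lists held 51722 summits at day 0, 67404 in the immobilized and 47912 in the non-immobilized library. The authors' score of a summit, read as −log10 of a p or q value, was used to rank summits within a list only, since scores of different libraries are not on 1 scale. Unless stated otherwise, each list was reduced to its 47912 best-scoring summits, so that lists of 1 length were compared. The lowest score kept was 3.996 at day 0, 6.61 in the immobilized and 1.33 in the non-immobilized library. A summit that the reduction removed is called below the cut. Regions are the merged windows of 250 bp on either side of the kept summits, and a region is called in a library that has a kept summit in it. Ranks are given as the percentage of the 47912 summits in the same list that scored higher, so that 0% is best. All 12 mesenchymal marker genes examined, Pdgfra, Prrx1, Col1a1 and Col1a2 among them, held a region at day 0 and at day 7 immobilized, and 11 did at day 7 non-immobilized. The same held for 70.8%, 72.0% and 71.4% of all protein-coding genes. Markers of other cell types were present too. In the same order of libraries, 8, 7 and 8 of the 8 skeletal muscle genes held a region. For endothelial genes the counts were 6, 8 and 8 of 8, and for keratinocyte genes 5, 8 and 5 of 8. For myeloid genes they were 4, 5 and 5 of 8, and for Schwann cell genes 5, 5 and 7 of 7. The 8 keratinocyte genes held 10 regions at day 0, 42 in the immobilized and 11 in the non-immobilized library, and the 8 endothelial genes held 30, 35 and 65. The 8 skeletal muscle genes held 34, 27 and 29, the 8 myeloid genes 8, 11 and 11, with Adgre1, Itgam and Lyz2 without a region in any library, and the 7 Schwann cell genes 22, 22 and 18. Their part in the results below was not tested.

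The promoter sequences of 4 cartilage genes are shown first, because they separate a gene with a summit over its start from 3 without one. Each is the 250 bases before the annotated start, from RefSeq (GRCm38.p6, the assembly of mm10), read 5′ to 3′ along the gene. In Matn3 (plus strand, chr12:8947679-8947928) the capitals mark the 26 bases that run from the outermost to the innermost summit of the 3 libraries. Acan (plus strand, chr7:79052976-79053225), Ihh (minus strand, chr1:74951673-74951922) and Hapln1 (plus strand, chr13:89540386-89540635) held no summit in this window and are in lower case throughout.
Matn3: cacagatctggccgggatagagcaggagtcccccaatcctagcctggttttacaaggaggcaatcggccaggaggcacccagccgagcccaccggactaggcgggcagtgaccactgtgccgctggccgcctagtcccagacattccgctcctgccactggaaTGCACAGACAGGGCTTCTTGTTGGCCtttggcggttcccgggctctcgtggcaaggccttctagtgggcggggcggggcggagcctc
Acan: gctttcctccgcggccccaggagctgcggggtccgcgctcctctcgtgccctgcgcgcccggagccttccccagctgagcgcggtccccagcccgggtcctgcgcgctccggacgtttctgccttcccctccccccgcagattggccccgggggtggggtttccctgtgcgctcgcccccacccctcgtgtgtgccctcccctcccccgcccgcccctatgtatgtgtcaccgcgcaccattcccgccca
Ihh: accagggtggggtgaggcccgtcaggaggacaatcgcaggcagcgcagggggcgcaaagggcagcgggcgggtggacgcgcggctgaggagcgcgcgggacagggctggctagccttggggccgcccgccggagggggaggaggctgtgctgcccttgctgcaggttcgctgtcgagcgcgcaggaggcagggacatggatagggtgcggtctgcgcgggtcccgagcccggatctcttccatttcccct
Hapln1: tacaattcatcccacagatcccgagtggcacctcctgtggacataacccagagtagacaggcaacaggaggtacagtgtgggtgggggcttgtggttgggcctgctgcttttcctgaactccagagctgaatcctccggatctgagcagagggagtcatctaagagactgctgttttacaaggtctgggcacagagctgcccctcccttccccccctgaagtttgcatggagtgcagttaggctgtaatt

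These windows differ in base composition. G and C made up 65.2% of the Matn3 window, 74.4% of that of Acan, 72.0% of that of Ihh and 54.4% of that of Hapln1, against a median of 52.4% over 31396 annotated starts on these chromosomes. A summit within 500 bp in all 3 libraries was found for 37.6% of those starts, and for 81.0% of the 2984 starts with at least 70% G and C before them. Acan and Ihh belong to the GC-rich class, and neither had a summit within 500 bp of its start in any deposited list. The nearest to Acan was 27.7 kb into the gene (day 7 immobilized, below the cut), and the nearest to Ihh 2.65 kb into the gene (day 0). The core letters bound by Sox factors, searched as ACAATG and ACAAAG on both strands, occurred in none of the 4 windows and in 24.7% of all windows. They did occur at the Sox genes matched. The Sox5 window held 1 match, and the Sox6 windows held 1, 1, 4, 1, 3 and 0, in order of falling coordinate. These windows lie before starts inside the genes, at 143947106 in Sox5, and none belongs to the outermost start. G and C made up 39.6% of the Sox5 window and 34.0% to 60.8% of the Sox6 windows. The part of base composition in these counts was not tested. The table matched 6 of the 9 genes. It did not match Sox9, Col2a1 and Comp. For Sox9 and Comp, start below means the gene boundary with the lower coordinate, and end the one with the higher coordinate.

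Across the 9 genes, regions were spread unevenly. The Sox trio held 38 of the 47 regions and the 6 cartilage genes held 9. Sox5 had 20, Sox6 13, Sox9 5, Col2a1 3, Comp 2, Matn3 2, Hapln1 1, Ihh 1 and Acan 0. These counts were not scaled by gene length. Sox5 spans 954 kb and Sox6 570 kb, against 5.55 kb for Sox9 and 6.36 to 71.3 kb for the 6 cartilage genes. Of the 47, 37 lay inside the gene and 7 lay within 1 kb of a gene end, from 6 genes. At least 1 region was called for 8 of the 9 genes at day 0, for 6 at day 7 immobilized and for 6 at day 7 non-immobilized. The same held for 70.8%, 72.0% and 71.4% of all protein-coding genes, so each count lay within 2 genes of the background share. The genes that had a region at day 0 and none at day 7 were Hapln1 and Ihh. Acan belonged to the 24.4% of protein-coding genes without a region in any library.

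Of the 9 genes, 6 (Sox5, Sox6, Sox9, Col2a1, Comp and Matn3) had at least 1 region called in all 3 libraries. The share of all protein-coding genes with such a region was not computed, so this count has no background to stand against. In all, 16 of the 47 regions were called in all 3 libraries (34.0%, 20.9 to 49.3), against 46.5% of the 58655 regions in or near any protein-coding gene. Day 0 alone held 10 (21.3%, 10.7 to 35.7; background 13.1%), day 7 immobilized alone 5 (10.6%, 3.55 to 23.1; background 11.4%) and day 7 non-immobilized alone 1 (2.13%, 0.0539 to 11.3; background 10.6%). The day 7 libraries shared 6 that day 0 lacked (12.8%, 4.83 to 25.7; background 8.37%). Day 0 shared 4 with the immobilized library alone (8.51%, 2.37 to 20.4; background 5.14%) and 5 with the non-immobilized library alone (10.6%, 3.55 to 23.1; background 5.0%). Each of these 7 background shares lay inside the interval of the set. With the lists as deposited, 13 regions were in the immobilized list alone.

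**Figure D1:**
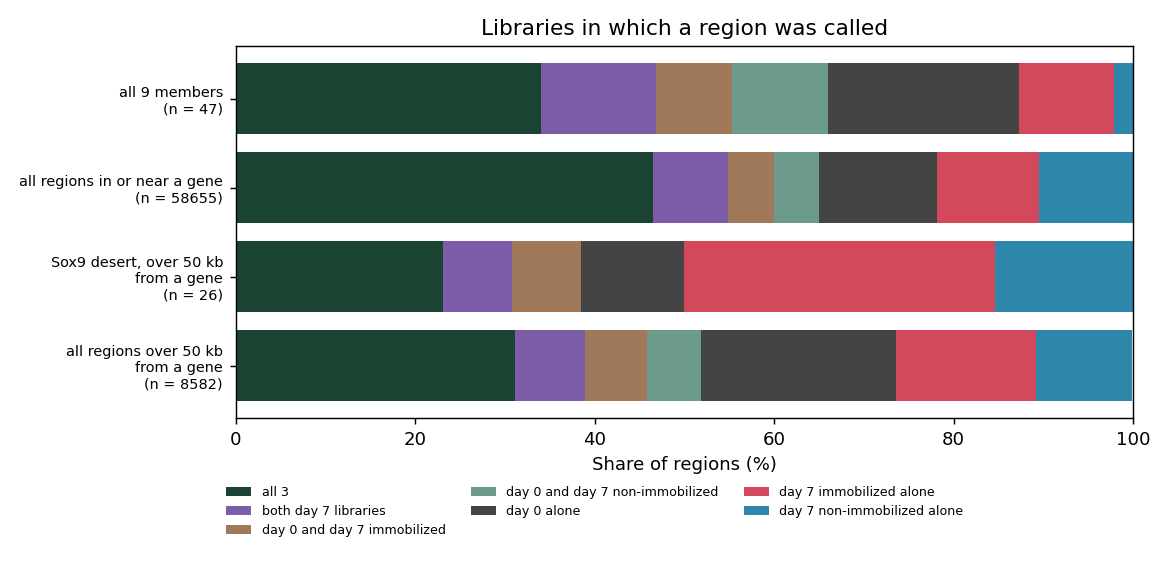
Share of regions (%) by the libraries in which they were called, for the 47 regions of the 9 genes, the 58655 regions in or near any protein-coding gene, the 26 regions of the Sox9 desert over 50 kb from a gene, and all 8582 regions over 50 kb from a gene. Day 7 immobilized alone makes up 34.6% of the desert regions and 15.6% of their background.

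Regions called in all 3 libraries had the better ranks. Their median rank was 37.0% at day 0, 36.8% in the immobilized and 32.3% in the non-immobilized library, close to the medians of 30.8%, 30.9% and 31.1% of all such regions in or near a gene. The 10 regions of day 0 alone ranked from 40.4% to 98.5%, with a median of 73.9%. The 5 of day 7 immobilized alone ranked from 43.4% to 96.4%. The 1 of day 7 non-immobilized alone, in Sox5, ranked at 98.8%. In the 20 regions present in all 3 deposited lists, the summits of the libraries lay 3 to 275 bp apart, with a median of 45 bp.

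**Figure D2:**
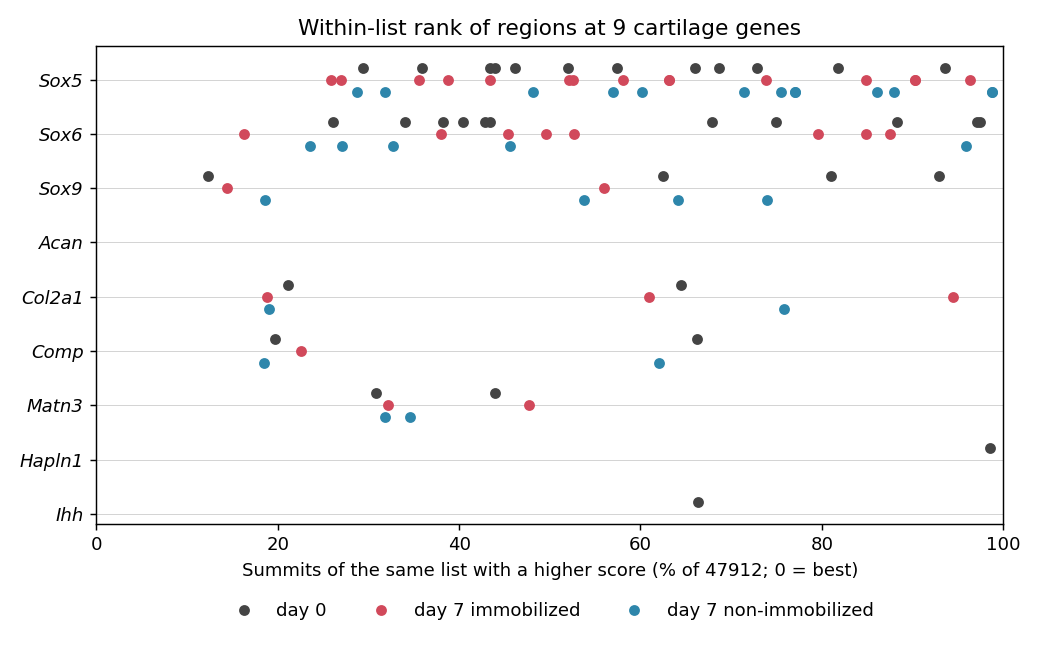
Within-list rank of each called region (x axis, % of the 47912 summits of the same list that scored higher, 0 = best) for the 9 genes (y axis), 1 point per region and library. The regions with the best ranks lie at Sox9, Sox6, Comp and Col2a1, Acan has no point, and Hapln1 and Ihh have 1 point each, from day 0.

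Sox9, the master regulator of the chondrocyte lineage (chromosome 11, 112782210 to 112787757, mm10), had its strongest region over its start. The summits lay at 112782115 at day 0, 112782108 in the immobilized and 112782130 in the non-immobilized library. Their scores were 48.2, 49.6 and 30.3, and they ranked at 12.3%, 14.4% and 18.6%. The start of Sox9 was thus among the better-scoring summits of each library, before injury and after it. The other 4 regions were not called in all 3 libraries. A summit 772 bp into the gene ranked at 81.0% at day 0 and 74.0% at day 7 non-immobilized, and no immobilized summit was listed there. Past the gene, a region 9.17 kb from its end was called at day 0 alone (92.9%). A region 11.2 kb past the end was called at day 0 (62.5%) and day 7 non-immobilized (64.1%), and the immobilized library had a summit there below the cut, with a score of 6.28. A region 23.9 kb past the end was called in both day 7 libraries (55.9% immobilized, 53.7% non-immobilized) and not listed at day 0.

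The Sox9 desert is the stretch without protein-coding genes from 1 Mb before Sox9 (the next gene, Gm11677, ends 1056 kb away) to Slc39a11, which starts 457 kb past the end of Sox9. Sox9 is known for enhancers spread over such distances. Besides the 5 regions above, 32 were called there: 12 at day 0, 24 in the immobilized and 16 in the non-immobilized library. The sides of the gene differed. The 1 Mb before Sox9 held 8 of the 32, and the 457 kb after it held 24. Per megabase, and counting the summits near the gene too, the side after Sox9 held 28.4 summits at day 0, 41.6 in the immobilized and 32.8 in the non-immobilized library. Over all 737 gaps of 400 kb or more between protein-coding genes the medians were 2.57, 2.35 and 2.17, and 52, 18 and 27 gaps were denser than the side after Sox9. The side before Sox9 held 2, 7 and 4 summits per megabase, and there 413, 217 and 295 gaps were denser.

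Before Sox9, 1 distal region was called in all 3 libraries, 161 kb from the start, with summits at 112621171, 112621112 and 112621257 and ranks of 22.2% at day 0, 41.9% in the immobilized and 39.1% in the non-immobilized library. It was the only distal region on that side that the reduced day 0 list held. The immobilized library alone had 5 more, and the best of these, 641 kb before the start (112140916), had a score of 30.5 and a rank of 25.1%. Neither of the other lists had a summit in that region. The remaining 4, at 231 kb, 436 kb, 535 kb and 567 kb, ranked from 63.2% to 96.4%. The non-immobilized library alone had 2, at 151 kb (86.1%) and 821 kb (90.3%).

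After Sox9, 6 distal regions were called in all 3 libraries, at 187 kb, 200 kb, 275 kb, 356 kb, 378 kb and 414 kb past the end of the gene. The region at 378 kb was the best distal one at day 0: its summits at 113165287, 113165278 and 113165274 had scores of 42.8, 39.3 and 21.0 and ranked at 14.6%, 19.3% and 26.3%, in the order day 0, immobilized, non-immobilized. The region at 414 kb ranked at 25.7%, 25.0% and 18.8%, and the 2 day 7 libraries had regions 273 kb and 422 kb past the end that day 0 did not list, with ranks of 39.1% and 31.7% immobilized and 38.9% and 41.5% non-immobilized. A region 385 kb past the end was called at day 0 (27.9%) and day 7 immobilized (66.6%) and was not listed at day 7 non-immobilized. Of the 32 regions, 6, among them the one at 414 kb, lay within 50 kb of Slc39a11, which encodes a zinc transporter. No assignment of a distal region to Sox9 was measured.

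Of the 26 desert regions over 50 kb from any gene end, 9 were called in the immobilized library alone (34.6%, 17.2 to 55.7), against 15.6% of all 8582 regions that far from genes. Day 0 alone held 3 (11.5%, 2.45 to 30.2; background 21.8%), day 7 non-immobilized alone 4 (15.4%, 4.36 to 34.9; background 10.7%) and all 3 libraries 6 (23.1%, 8.97 to 43.6; background 31.1%). Both day 7 libraries together held 2 (7.69%, 0.946 to 25.1; background 7.85%), day 0 with immobilized 2 (7.69%; background 6.84%) and day 0 with non-immobilized 0 (upper limit 13.2%; background 6.02%). In the whole desert, with the regions near Sox9 and Slc39a11 included, the 11 regions of the immobilized library alone ranked from 25.1% to 98.6% with a median of 69.96%, the 4 of day 0 alone had a median of 83.8% and the 5 of the non-immobilized library alone one of 86.1%. The count for the immobilized library alone depended on list length: it was 1 among the 23956 best summits of each list and 31 in the lists as deposited. The immobilized library is also the one in which keratinocyte genes held the most regions (42, against 10 and 11), and the part of that in the desert counts was not tested.

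**Figure D3:**
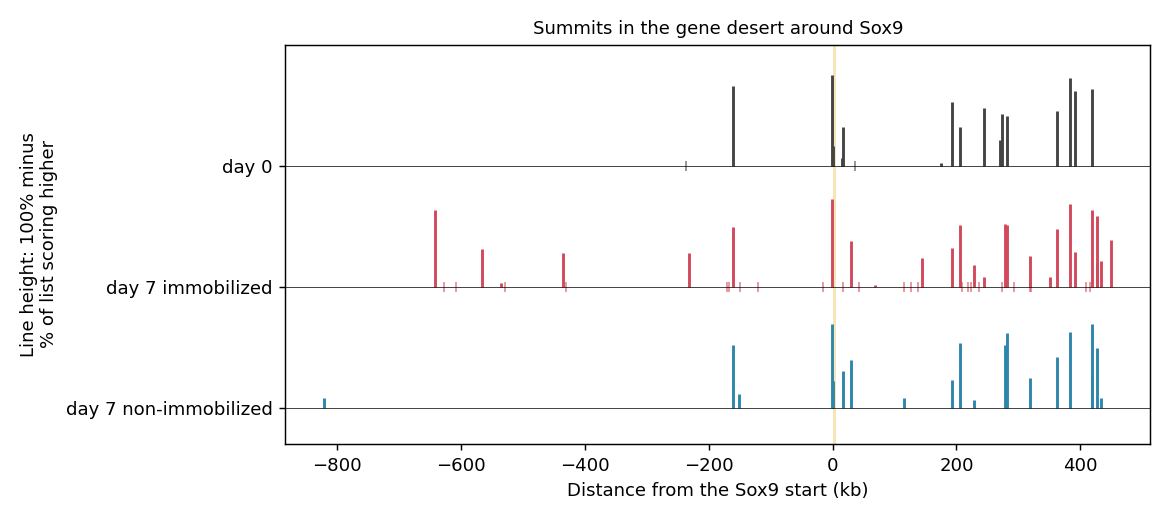
Summits around Sox9 by distance from its start (x axis, kb) in each library. Line height is 100% minus the rank, short ticks mark summits below the cut, and the shaded band is Sox9. Lines crowd on the side after the gene in all 3 libraries, and the side before it has 1 distal line shared by all 3, 161 kb away.

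Sox5, a partner of Sox9 that binds DNA through the same kind of HMG domain (chromosome 6, 143828425 to 144782287, read from the higher coordinate down), spans 954 kb. Its body held 12.6 summits per megabase at day 0, 14.7 in the immobilized and 13.6 in the non-immobilized library, against medians of 4.89, 3.68 and 3.80 over the 216 protein-coding genes of 500 kb or more. Of those genes, 59, 44 and 43 were denser. Of its 20 regions, 6 were called in all 3 libraries. The first lay 494 bp inside the outermost start and ranked at 29.5% at day 0, 35.6% in the immobilized and 31.8% in the non-immobilized library. Others lay 28.1 kb and 71.2 kb along the gene, and the last 3 lay 616 kb, 707 kb and 725 kb along it. The lists held no summit between 186 kb and 512 kb.

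The 3 regions shared by all libraries in the last part of Sox5 did not rank alike. The region 707 kb along the gene ranked at 57.4% at day 0, 27.0% in the immobilized and 28.8% in the non-immobilized library, with scores of 10.04, 28.4 and 19.0. Both day 7 libraries thus ranked it better than day 0 did. At its neighbours this held for the immobilized library alone: the region at 616 kb ranked at 44.0%, 25.8% and 48.1%, and that at 725 kb at 46.2%, 38.8% and 57.0%. Farther along, at 737 kb, 866 kb and 914 kb, 3 regions were called in both day 7 libraries and were not listed at day 0. They ranked from 63.2% to 90.3% immobilized and from 77.0% to 87.9% non-immobilized. Another region of this kind lay 93.1 kb along the gene, near the bottom of both lists (90.3% and 98.7%). A region 924 kb along the gene was called at day 7 immobilized alone, with a score of 17.4 and a rank of 43.4%. At day 0 alone stood regions 186 kb (66.0%) and 573 kb (72.9%) along the gene, and at the second of these the immobilized library had a summit below the cut. Thus past 725 kb from the start the day 0 list had no summit inside Sox5, while 4 were called in the immobilized and 3 in the non-immobilized library.

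Sox6, the other partner of Sox9, related to Sox5 (chromosome 7, 115470872 to 116040776, read from the higher coordinate down), had 13 regions, 11 called at day 0, 8 in the immobilized and 5 in the non-immobilized library. The 5 of the non-immobilized library were the 5 called in all 3. Of these, 4 lay in the first 9 kb of the gene, 404 bp, 6.15 kb, 6.89 kb and 8.80 kb from the outermost start, and 1 lay 17.4 kb past the far end. The first of these ranked at 26.1% at day 0, 16.3% in the immobilized and 23.6% in the non-immobilized library, with scores of 25.0, 45.3 and 23.8. The summits 8.80 kb along the gene lay 924, 925 and 930 bp before an internal annotated start (116031047), at ranks of 34.0%, 38.1% and 27.0%. The region 6.15 kb along the gene was near the bottom of the lists, at 97.4%, 87.6% and 95.9%. A region 7.65 kb along it was called at day 0 (43.5%) and day 7 immobilized (52.6%) and not listed at day 7 non-immobilized. The 5′ part of Sox6 thus held regions called in every library, but not all of its regions were.

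The body of Sox6 beyond 8.80 kb held no region called in every library. Between 8.80 kb from the start and the far end, the non-immobilized list held no summit. Day 0 held 3 called summits there that no other library called, 215 kb (88.3%), 472 kb (40.4%) and 476 kb (67.9%) along the gene. At 472 kb the day 0 score was 15.6 and the immobilized library had a summit below the cut with a score of 5.61. The immobilized library alone held 2, at 196 kb (79.6%) and 460 kb (84.9%). Day 0 alone also had a region 1.11 kb from the start (97.1%) and 1 lying 44.0 kb past the far end (75.0%). In the region past the far end the immobilized library had a summit below the cut, with a score of 5.61. Summits per megabase of the gene were 15.8 at day 0, 12.3 in the immobilized and 7.02 in the non-immobilized library, and 47, 54 and 80 of the 216 long genes were denser.

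**Figure D4:**
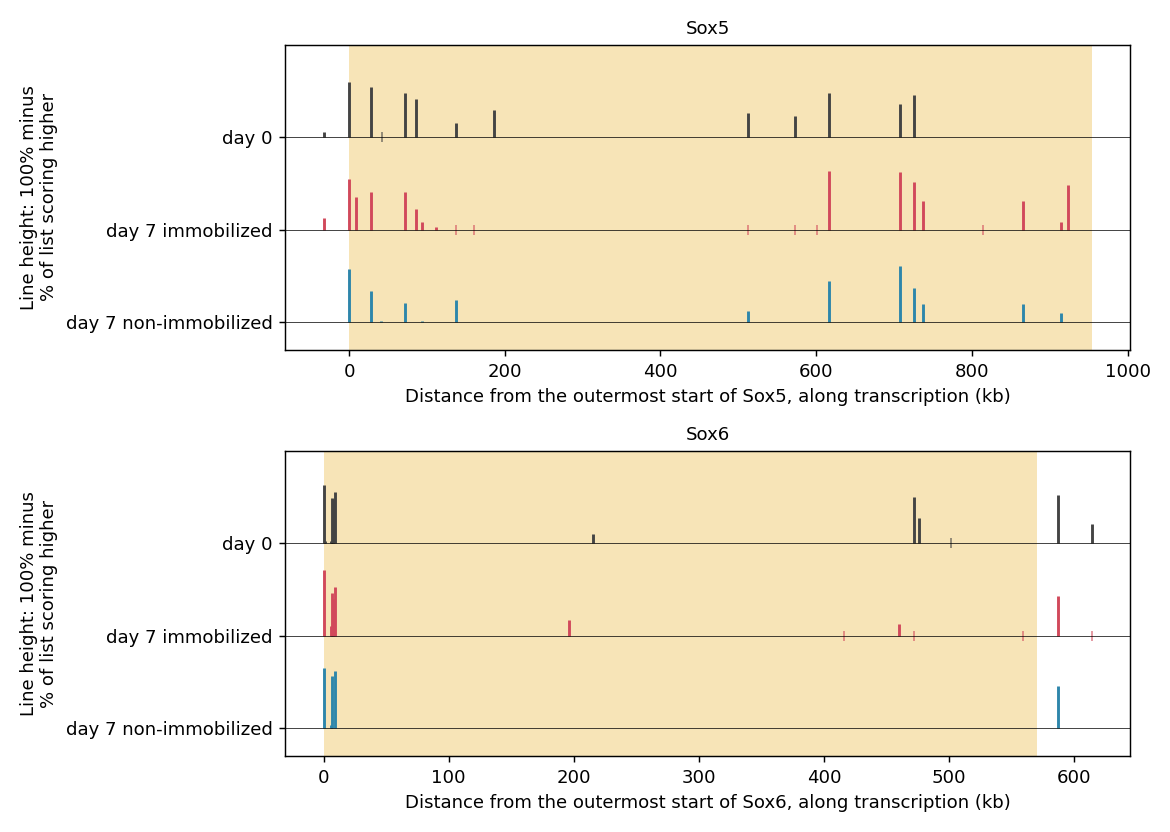
Summits along Sox5 (top) and Sox6 (bottom) by distance from the outermost start (x axis, kb, in the direction of transcription) in each library. Line height is 100% minus the rank, short ticks are summits below the cut, and the shaded band is the gene. Sox5 beyond 725 kb holds lines in the day 7 libraries only, and the body of Sox6 beyond 8.80 kb holds none in the non-immobilized library.

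Col2a1, the gene of type II collagen (chromosome 15, 97975602 to 98004724), had a strong region inside the gene, 11.6 kb from the boundary at 98004724. No annotated start was matched for Col2a1, so neither boundary is named as its start here. Its summits lay at 97993112, 97993118 and 97993114 in the order day 0, immobilized, non-immobilized, that is, within 6 bp. Scores were 30.8, 40.2 and 29.6, and ranks 21.2%, 18.8% and 19.0%. This position was called at nearly the same rank in each library. Near the boundary at 98004724 the libraries differed. A region 1.45 kb inside was called at day 0 (64.5%) and day 7 immobilized (61.0%) and not listed at day 7 non-immobilized. A region 220 bp inside was called in both day 7 libraries, at 94.4% immobilized and 75.9% non-immobilized, and not listed at day 0. The table used gives no exons, so exonic and intronic positions were not analysed here.

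Comp, whose product binds collagen in cartilage and tendon (chromosome 8, 70373548 to 70382066), also had a region called in all 3 libraries, 1.13 kb inside the gene start, with scores of 33.0, 33.8 and 30.5 and ranks of 19.7%, 22.6% and 18.5%. A second region, 9.35 kb before the gene start, was called at day 0 (66.2%) and day 7 non-immobilized (62.1%). There the immobilized library had a summit below the cut, with a score of 4.03.

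Both regions of Matn3 (chromosome 12, 8947929 to 8972028) were called in all 3 libraries. The first is the one in capitals above: the summits lay 62 bp before the start at day 0, 87 bp at day 7 immobilized and 62 bp at day 7 non-immobilized, with scores of 14.0, 23.8 and 15.5 and ranks of 44.0%, 32.2% and 34.6%. The second lay 22.1 kb into the gene, 1.98 kb from its far end, with scores of 20.9, 15.8 and 17.0 and ranks of 30.9%, 47.7% and 31.8%. The immobilized library thus had the best rank of the 3 libraries at the start of Matn3 and the poorest at its far end.

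The last 3 genes had 1 called summit or none. Ihh (chromosome 1, 74945315 to 74951672) had 1 region, at day 0 alone, with a summit at 74949021, a score of 8.40 and a rank of 66.4%. Hapln1 (chromosome 13, 89540529 to 89611832) had 1 region, also at day 0 alone, 959 bp before the gene and 1066 bp before its annotated start. Its score was 3.996, equal to the lowest score kept, at which 835 day 0 summits were tied and 697 were kept in file order, so this region is not called when the tied summits are left out. Acan (chromosome 7, 79053226 to 79115099) had no summit at day 0 or at day 7 non-immobilized. Its 1 immobilized summit, at 79080960 inside the gene, was below the cut, with a score of 6.21. Absence from a list says that no summit was reported there, not that the DNA was closed.

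Genes with the same number of regions in each library were looked up over all protein-coding genes. The numbers of Sox5 (12 at day 0, 15 at day 7 immobilized, 13 at day 7 non-immobilized) and of Sox6 (11, 8 and 5) occurred in no other gene. The median gene had 2 regions, and exact matches are rarer at high counts, so no trait of these genes is read from this. Those of Sox9 (4, 2 and 4) occurred in 18 others, those of Col2a1 (2, 3 and 2) in 210, and those of Hapln1 and Ihh (1, 0 and 0) in 251. Matn3 (2, 2 and 2) shared its numbers with 1092 genes, of the pathway lists Dhh and Sox30, and Comp (2, 1 and 2) with 221, of the lists Kif7 and Sox2. Acan shared its zeros with 5038 genes, Col9a1, Col9a3 and Col10a1 among them.

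Other genes of the pathway were read from 5 lists. A region was present for 70.8%, 72.0% and 71.4% of all protein-coding genes at day 0, day 7 immobilized and day 7 non-immobilized, and the counts of genes below stand against these shares. Of 20 other cartilage matrix genes, 13 had a region at day 0, 13 in the immobilized and 10 in the non-immobilized library, and their median was 2 regions per gene, as for all protein-coding genes. Without a region in any library were Col9a1, Col9a3 and Col10a1, which encode cartilage collagens, and Mia, Snorc and Ucma, which encode small proteins of chondrocytes. Of the 47 regions of this list, 15 were called at day 0 alone, 4 in each day 7 library alone and 16 in all 3. Over all regions in or near a protein-coding gene these patterns made up 13.1% (day 0 alone), 11.4% (immobilized alone), 10.6% (non-immobilized alone) and 46.5% (all 3). The genes of this list with the most regions were Fmod (7), Matn4 (6), Cilp (5) and Cytl1 (5), all secreted proteins. Cytl1 had 5 at day 0, 1 in the immobilized and 3 in the non-immobilized library.

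All 10 genes listed under cartilage matrix synthesis had a region in each library, against the 70.8% to 72.0% of all genes. They held 45 regions at day 0, 66 in the immobilized and 61 in the non-immobilized library. Over the whole series, 46537, 47111 and 46069 regions were called in the same order of libraries. Chst11, a chondroitin sulphotransferase, had 10, 14 and 21, and Xylt1, which starts the sugar chains, had 7, 16 and 10. Csgalnact1 had 9, 11 and 11 and Chsy1 6 in each. The 16 genes of chondrocyte transcription and growth control held 102, 97 and 91 regions. Of these genes, 15, 14 and 15 had a region, against 70.8%, 72.0% and 71.4% of all genes. Zbtb20, a zinc finger repressor, had 37, 23 and 25, Runx2, which drives chondrocyte maturation and bone formation, 13, 17 and 11, Trps1, a GATA-type repressor, 9, 7 and 9, and Wwp2, a ubiquitin ligase, 8, 7 and 6. Foxa2 had none.

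The 15 genes of the hedgehog pathway, through which Ihh signals, held 83 regions at day 0, 73 in the immobilized and 79 in the non-immobilized library. A region was present for 15, 14 and 15 of them, against 70.8%, 72.0% and 71.4% of all genes. Ihh itself had 1 region, at day 0. The hedgehog effectors Gli2 and Gli3 had 19, 18 and 15, then 10, 8 and 6. Disp1, needed for release of the ligand, had 13, 12 and 14, and Sufu, an inhibitor of the pathway, 8, 7 and 11. Of 14 other Sox genes, 10 had a region at day 0 and 13 in each day 7 library, against 70.8%, 72.0% and 71.4% of all genes. Sox13, the third member of the Sox5 and Sox6 group, had 6, 6 and 9, Sox4 6, 5 and 5, Sox12 4, 3 and 4, and Sox18, a factor of vessel development, 0, 1 and 4. Sox18 is also among the endothelial markers, which held 30, 35 and 65 regions, and their part in this count was not tested. Numbers of regions were not scaled by gene length, so they compare libraries within a gene, not genes with each other.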

How the data were processed

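Summits of ATAC-seq peaks from 3 mouse libraries, 1 per group by the sample labels, were used. Per the labels' protocols, the libraries are Omni-ATAC libraries. The submitters' processing notes name Bowtie2 2.3.4.1, MACS2 2.1.2 and mm10 among others. Read shifting, read filters and the peak cutoff were not stated there. The deposited lists hold 1 bp summits on 19 chromosomes, 1 list per library. The authors' score in them was read as −log10 of a p-value or q-value; which of them is not stated. In the deposited run statistics, reads are counts, duplication is a fraction and alignment a percent (89.9% to 92.5%).

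Equal list lengths were reached by keeping the best scores, ties in file order, which dropped 7.37% of the day 0 summits and 28.9% of the immobilized ones. Windows reached 250 bp to either side of a summit and were merged across libraries where they overlapped. Gene positions came from RefSeq (GRCm38.p6). From each pathway list, at most 4 genes, those with the most regions, were named with their values, besides those without a region; genes with the same numbers of regions were named from the lists in alphabetical order, at most 3 per gene. The members and lists were chosen with earlier results of these data known. Functions were tested on simulated data. Alternatives were list length, window width, distance and desert limits and, added after the data were seen, leaving out ties. The software was matplotlib 3.10.9, scipy 1.17.1, pandas 2.3.3 and numpy 2.4.6 under Python 3.11.15.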

Additional observations from a re-analysis of the deposited data

How the results depend on the processing

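Of 87 values computed under alternatives, 71 lay within 1.5 times the reported one. With the lists as deposited, regions in the immobilized list alone rose in number from 5 to 13 at the 9 genes and from 11 to 31 in the Sox9 desert, and those in the non-immobilized list alone in the desert numbered 3 in place of 5. With the 23956 best summits of each list, the 9 genes held 4 regions of day 0 alone (10 as reported), 1 of day 7 immobilized alone and 0 of day 7 non-immobilized alone, and 16, 14 and 12 summits in place of 36, 32 and 29 in the order day 0, immobilized, non-immobilized. In the desert this length left 4 regions in all 3 libraries in place of 8, 1 in the immobilized and 0 in the non-immobilized library alone. Windows of 500 bp on each side gave 3 desert regions of the non-immobilized library alone. Counting summits inside other genes within 1 Mb of Sox9 gave 23 in all 3 libraries, 10 at day 0 alone and 9 at day 7 non-immobilized alone. The alternatives differ in how many summits or how much sequence they admit and in which windows merge, and the source of each change was not tested. Without the tied day 0 summits the 9 genes held 9 regions of day 0 alone, and Hapln1 had none. No paired analysis was possible because each group has 1 library and the labels carry no replicate numbers. Differences of a few regions cannot be told apart from variation between libraries of 1 group, and the number of summits reported limits what could be seen at weak sites.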
